A study of Homo sapiens with 21 samples.

Results

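The genes described here are the nuclear subunits of the mitochondrial respiratory chain and of the ATP synthase, followed across 21 human cancer cell lines. They were chosen by symbol: every gene listed as NDUFA, NDUFB, NDUFC, NDUFS or NDUFV with a number, SDHA to SDHD, UQCR, COX4 to COX8, or ATP5 followed by a letter. That rule found 81 symbols in the tables of the hepatocellular carcinoma (HCC) lines and 86 in the table of the lung and pancreas lines. After 2 pseudogenes (ATP5EP2 and COX6BP1) and 3 symbols that name no subunit (COX4NB, ATP5S and ATP5SL, now EMC8, DMAC2L and DMAC2) were left out, 76 subunits remained among the 37879 genes listed for the HCC lines. For the lung and pancreas lines 81 remained among 34601 genes, with ATP5E, COX7A2L, NDUFA2, NDUFA6 and NDUFB9 listed there only. All 81 were matched to a RefSeq name. NDUFA4 was counted with complex IV, where its current name COXFA4 places it. By complex, the HCC tables held 33 subunits of complex I, 4 of II, 8 of III, 17 of IV and 14 of V, and the lung and pancreas list held 36, 4, 8, 18 and 15.

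RNA was read once per line on Illumina BeadChip arrays, without any treatment. The 11 HCC lines were Hep3B, HLF, Huh-1, JHH-4, JHH-6, PLC/PRF/5, SK-HEP-1, SNU-423, SNU-475, SNU-739 and SNU-886, the 5 lung lines Calu-1, Calu-3, Malme-3M, NCI-H1299 and NCI-H596, and the 5 pancreas lines AsPC-1, MIA-PaCa-2, Capan-1, Capan-2 and BxPC-3. Each line is an established culture read on 1 array, so every spread below is a spread between lines and says nothing of repeat arrays. The HCC lines were read on another array design and were normalized apart, so the tissue and the array design cannot be told apart and no HCC value was tested against the others.

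Complexes I to IV pass electrons from NADH and succinate to oxygen. Complexes I, III and IV, but not II, pump protons out of the mitochondrial matrix, and complex V, the ATP synthase, lets protons back in to make ATP. Nearly all their subunits are encoded in the nucleus and imported, while a few core subunits come from mitochondrial DNA and are not among the genes here. Several subunits of cytochrome c oxidase exist as a widely expressed isoform and another found mainly in muscle, lung or testis.

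Intensities are given as log2 values after background correction and normalization unless they are called raw, and a gene counts as detected where its deposited detection p-value is under 0.05. Hep3B stood apart from the other lines over all genes. In Hep3B 24.9% of genes were detected, against 32.57% to 35.1% in the other HCC lines and 40.74% to 43.68% in the lung and pancreas lines. The signal at the 95th percentile over that of the background was 4.779 in Hep3B, 10.11 to 26.38 for the rest of the HCC lines, and 33.0 to 43.55 for lung and pancreas. Results for HCC lines are therefore given with and without Hep3B. The labelled tissues were not always borne out by marker genes. All 10 hepatocyte markers were detected in Huh-1 and PLC/PRF/5, 5 in Hep3B and SNU-886, and 0 to 3 in the other HCC lines, with 0 in HLF and SNU-739. The lung and pancreas lines also had 0 to 3 of them. Of 5 lung epithelial markers at most 1 was detected in any lung line. At most 1 was detected in any pancreas line too, and JHH-4, an HCC line, had 2. Of 6 pancreatic duct markers 2 (Capan-2) to 6 were detected in the pancreas lines and 3 to 5 in the lung lines. Of the 5 listed for HCC lines 1 to 5 were detected there. The pancreatic regulator PDX1, 1 of the 6, was detected in the pancreas lines other than MIA-PaCa-2 and in no lung line. Malme-3M, grouped with lung by the labels, is known as a melanoma line, but of 6 melanocyte markers only SILV was detected in it, as in NCI-H1299, Calu-1 and 3 pancreas lines.

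Most subunits were detected nearly everywhere. In the HCC lines 46 of 76 subunits were detected in every line and 18 in all but 1 line, which for all 18 was Hep3B. In the lung and pancreas lines 69 of 81 were detected in every line, and NDUFV3, an accessory subunit of complex I, was missed in Malme-3M only. Over all listed genes, 4958 were detected in every HCC line and 9748 in every lung and pancreas line. All 4 subunits of complex II and all 8 of complex III were detected in every lung and pancreas line.

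The subunits not detected in any line of either set were COX4I2, COX6A2 and COX7A1, which are the lung-type isoform of COX4 and the muscle-type isoforms of COX6A and COX7A, together with NDUFS6, a zinc-binding subunit of complex I. Raw intensities of COX4I2 were 83.74 to 197.6 in HCC lines and 92.55 to 129.1 in lung and pancreas lines, those of COX6A2 78.45 to 163 and 107.7 to 135.1. Their widely expressed partners COX4I1 and COX6A1 were detected in all 21 lines, and COX7A2 in all but Hep3B. Raw intensities of NDUFS6 were 82.98 to 166.1 in HCC lines and 96.88 to 161 in lung and pancreas lines. For NDUFA5 and NDUFB4, also accessory subunits of complex I, the signal was detected in 2 and 1 HCC lines and in 0 of the other 10. An undetected signal of NDUFS6, NDUFA5 or NDUFB4 does not show that the RNA was absent, which was not measured in another way. NDUFC2 was detected in 4 of 11 HCC lines and in 4 of 10 lung and pancreas lines, and NDUFB1 in 7 of 11 HCC lines and in every lung and pancreas line. Detection and brightness did not always go together. ATP5G2, now ATP5MC2, encodes the c subunit of the proton-driven ring and missed detection in HLF, Huh-1, SNU-739 and SNU-423 at raw intensities of 3368 to 3945, while in Hep3B it was detected at 1806.

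COX7B2, the testis-type counterpart of COX7B, was detected in 7 of 11 HCC lines and in 1 of 10 lung and pancreas lines. Its raw intensity was 5050 in SNU-423, 1240 in HLF, 1060 in SNU-475, 661.7 in SNU-739, 591.9 in JHH-4, 377.1 in PLC/PRF/5 and 180.2 in JHH-6. In Huh-1, SK-HEP-1, Hep3B and SNU-886 it was not detected, at raw intensities of 86.63, 184, 175.7 and 107.4. On the normalized log2 scale the HCC lines ran from 4.60 through a median of 8.30 to 12.17, and the lowest detected line, JHH-6 at 6.64, stood above the highest undetected line, Hep3B at 4.99. In the lung lines COX7B2 had 11.98 in NCI-H1299, against 4.89 in Calu-3, 5.01 in NCI-H596, 4.82 in Malme-3M and 4.97 in Calu-1. The pancreas lines had 4.85 in MIA-PaCa-2, 4.95 in AsPC-1, 4.90 in BxPC-3, 4.85 in Capan-2 and 4.95 in Capan-1. Among these 10 lines the gene was detected in NCI-H1299 alone. At a detection p-value under 0.01 the counts were 6 HCC lines and 1 lung line. Of 3 germ cell markers, at most 1 was detected in any line, PRM1 in no line and DAZL in BxPC-3 only. TNP1 was detected in JHH-4, SNU-423 and NCI-H1299, which had COX7B2 signal, and also in Huh-1, SK-HEP-1, Hep3B, NCI-H596, Malme-3M, Calu-1, MIA-PaCa-2, Capan-2 and Capan-1, which had none. The part of germ cell genes in the COX7B2 pattern was not tested.

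**Figure D1:**
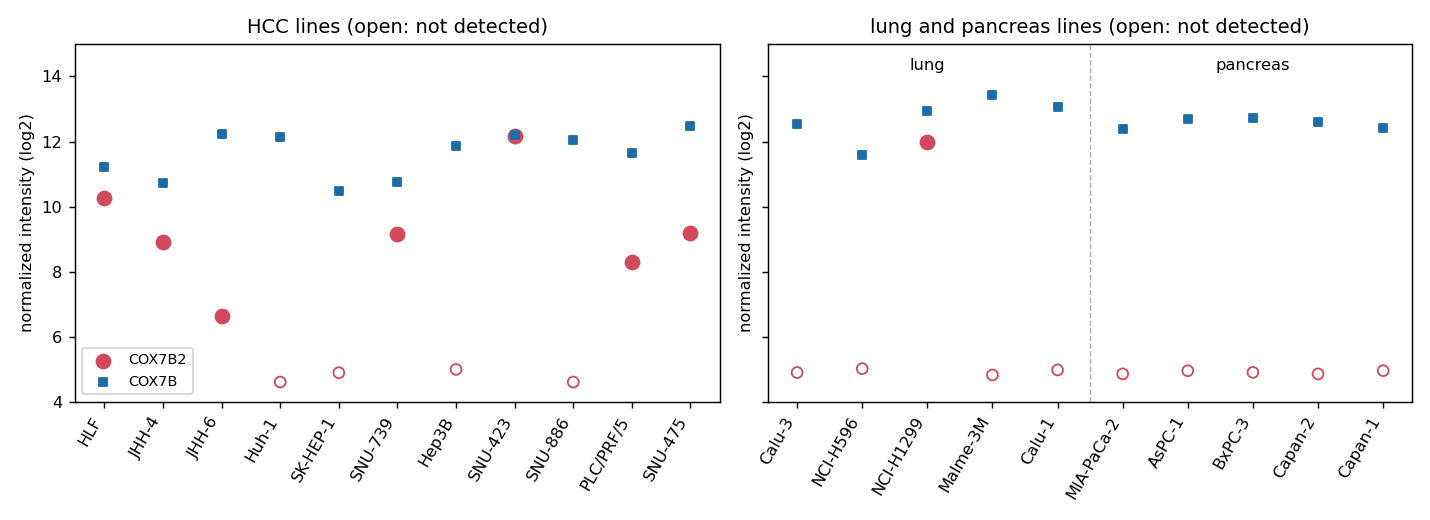
Normalized intensity (log2, vertical axis) of COX7B2 (circles) and COX7B (squares) in each line (horizontal axis), HCC lines on the left and lung then pancreas lines on the right; open marks are not detected. COX7B2 spans 4.60 to 12.17 over the HCC lines and stands at 11.98 in NCI-H1299, while COX7B is detected in every line.

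COX7B, which encodes the widely expressed form of this small subunit, was detected in every line, with 10.48 in SK-HEP-1, a median of 11.85 and 12.48 in SNU-475 over the HCC lines. It had 11.58 to 13.44 in the lung lines and 12.38 to 12.72 in the pancreas lines. Lines with COX7B2 signal were thus not lines without COX7B. The stretches of 250 bases before the start of each gene are shown because COX7B2 was the tissue-type isoform with the highest signal in these lines (RefSeq, GRCh38.p14, 5' to 3' along the gene). That of COX7B2 lies at chr4:46909246-46909495 on the minus strand and holds 5 CG pairs. That of COX7B lies at chrX:77899218-77899467 on the plus strand and holds 13. Neither stretch matched a motif searched below, so no letter is in capitals.
COX7B2: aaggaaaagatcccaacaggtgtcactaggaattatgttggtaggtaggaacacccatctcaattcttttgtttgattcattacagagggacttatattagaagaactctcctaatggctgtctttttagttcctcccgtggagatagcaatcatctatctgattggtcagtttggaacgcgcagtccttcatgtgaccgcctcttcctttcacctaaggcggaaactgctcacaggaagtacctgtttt
COX7B: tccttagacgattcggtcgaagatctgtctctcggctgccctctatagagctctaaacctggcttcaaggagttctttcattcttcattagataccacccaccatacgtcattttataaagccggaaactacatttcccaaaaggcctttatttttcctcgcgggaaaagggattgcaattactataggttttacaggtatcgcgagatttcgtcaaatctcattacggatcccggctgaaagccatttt

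The remaining isoforms of cytochrome c oxidase showed weaker departures. COX6B2, the testis-type form of COX6B, was detected in HLF at a raw intensity of 115.5 and in Hep3B at 185.8, and in neither at a detection p-value under 0.01. COX8C, a testis-type form of COX8, was detected in Hep3B only, at a raw intensity of 202.3 and likewise not at 0.01. Both were undetected in all lung and pancreas lines. COX6B1 and COX8A, the widely expressed forms, were detected in all lung and pancreas lines.

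The next question was how each complex varied from line to line. Each subunit detected in all lines of a set but at most 1 was set against its own median over the lines, and the deviations were averaged by complex, over 64 subunits in HCC lines and 70 in the others. Hep3B had the lowest mean deviation in each complex, -1.84 for complex I, -1.02 for II, -2.89 for III, -2.38 for IV and -1.76 for V. Over the 7926 genes detected as widely it was -0.61, but these were not matched to the subunits in level. Subunits detected in every HCC line had a median level of 12.46, against 9.52 for all such genes. A brighter gene can fall further before it reaches background, and the part of level was not tested. In complex II 2 of 4 subunits lay above their median in Hep3B and 2 below, with a median deviation of -0.05, and the mean was -0.59 without background correction. The other HCC lines lay between -0.42 and 0.87 in every complex. The distance from the highest to the lowest line was 2.03 for complex I, 1.89 for II, 3.22 for III, 2.67 for IV and 2.24 for V. With the 10 HCC lines other than Hep3B normalized by themselves these distances were 0.37, 1.24, 0.75, 0.70 and 0.60.

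**Figure D2:**
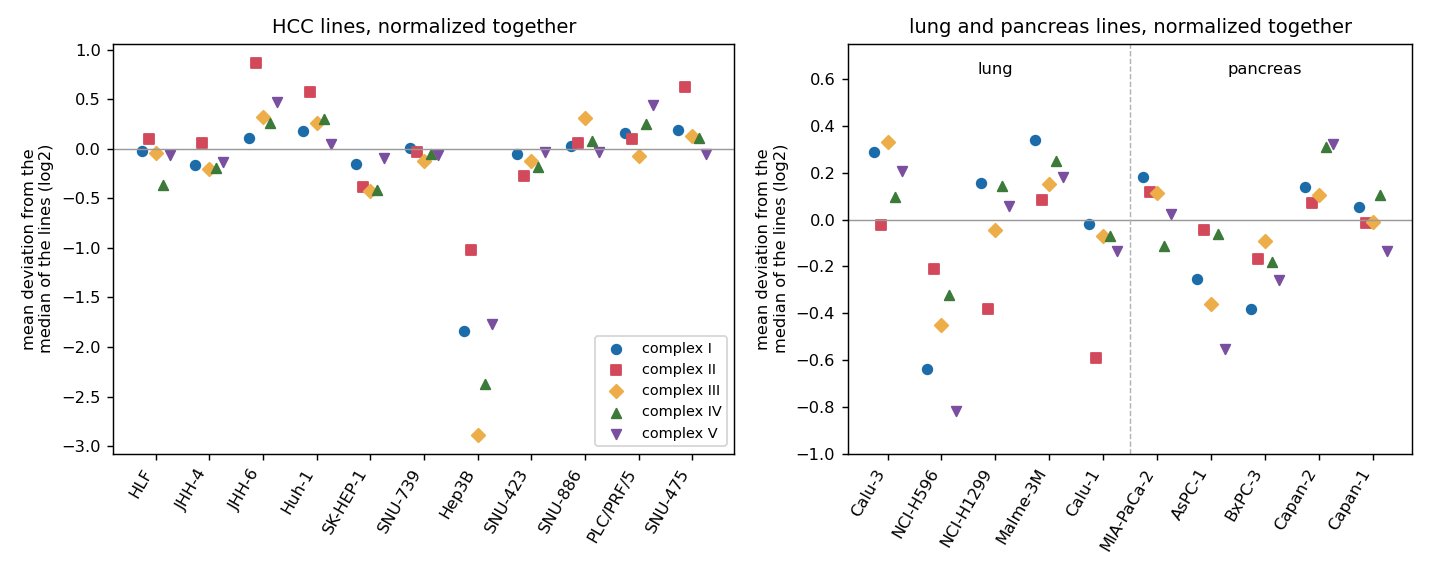
Mean deviation of the subunits of each complex from their median over the lines (log2, vertical axis) in every line (horizontal axis), HCC lines on the left and lung then pancreas lines on the right; the vertical scales differ. Hep3B lies between -1.02 and -2.89 while the other HCC lines stay between -0.42 and 0.87, and NCI-H596 is lowest in complexes I, III, IV and V on the right.

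Complex II had the widest range among HCC lines once Hep3B was set aside, and it came from different subunits in different lines. Its mean was over 4 subunits, against 28 for complex I, 8 for III, 11 for IV and 13 for V. A mean over fewer genes tends to vary more, and the part of subunit number in these ranges was not tested. JHH-6 had a mean deviation of 0.82 without Hep3B, SNU-475 0.57, Huh-1 0.52 and SK-HEP-1 -0.42. SDHA, the flavoprotein that oxidises succinate, had 10.48 in SNU-423, a median of 10.81 and 12.69 in JHH-6. JHH-6 was highest and Huh-1, at 11.68, stood above the other 9 lines. SDHD, a membrane anchor of the complex, had 5.05 in Hep3B, a median of 9.67 and 11.47 in SNU-475, with 10.76 in JHH-6. SDHC, the other anchor, ran from 9.54 in SK-HEP-1 to 11.21 in Huh-1, and SDHB, the iron-sulfur subunit, only from 12.33 in Hep3B to 13.25 in JHH-6. Without Hep3B the mean correlation between pairs of complex II subunits over the 10 lines was 0.27, over 4 genes that share the same arrays and normalization.

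Complexes III and IV were lowest in SK-HEP-1 among the lines other than Hep3B, at -0.42 and -0.41 without Hep3B. With median scaling in place of quantiles complex III was lower in PLC/PRF/5 (-0.53) than in SK-HEP-1 (-0.44). With the authors' processed values complex IV was slightly lower in HLF (-0.388) than in SK-HEP-1 (-0.381). In SK-HEP-1 42 of 64 subunits lay below their median and 17 above, and 45.8% of the 7926 genes detected as widely lay below. In JHH-6, Huh-1 and PLC/PRF/5 44 of 64 subunits each lay above their median, 68.8%, where 49.2%, 43.9% and 46.7% of those genes did. The high standing of PLC/PRF/5 turned with the scaling, its mean over the 64 subunits being 0.20 with quantiles and -0.27 with median scaling, where SNU-475 (0.73) and SNU-886 (0.63) were highest. Complex V was highest in JHH-6 at 0.45 without Hep3B, followed by PLC/PRF/5 at 0.43, which had -0.05 with median scaling. In JHH-6 12 of its 13 subunits lay above their median and in PLC/PRF/5 11. Huh-1 and PLC/PRF/5 were also the lines with all 10 hepatocyte markers, whereas JHH-6 had 1, and the part of the hepatocyte programme was not tested.

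Among subunits detected in every HCC line, large SDs over the 11 lines belonged to ATP5C1, UQCRHL, NDUFA1, ATP5G1, COX5B, NDUFB2 and UQCRH. In all 7 of these Hep3B was the lowest line. ATP5C1, now ATP5F1C, encodes the rotating shaft of the ATP synthase and had 6.33 in Hep3B, a median of 12.37 and 12.73 in JHH-6. Its SD was 1.84 with Hep3B and 0.30 without. UQCRHL had 8.44 in Hep3B, a median of 13.81 and 14.18 in SNU-475, and UQCRH, the hinge subunit of complex III, had 10.40, 13.34 and 13.68, with JHH-6 highest. UQCRHL is a near copy of UQCRH, and which of them a signal belongs to is uncertain. Their signals had a correlation of 0.99 over the 11 lines and 0.87 without Hep3B. NDUFA1, a small membrane subunit of complex I, ran from 10.22 in Hep3B through a median of 14.21 to 14.85 in JHH-6. COX5B, a matrix-side subunit of complex IV, had 10.54 in Hep3B, a median of 13.33 and 14.63 in JHH-6.

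Without Hep3B, a choice made after the data were seen, large SDs were those of SDHD, NDUFB10, COX7B, ATP5G3, UQCRB, NDUFV1 and UQCRC1, from 0.74 to 0.66. SNU-475, the highest line for several subunits, was deposited in a table of its own. NDUFB10, an accessory subunit of the membrane arm, had 12.17 in SNU-886 and 12.08 in SNU-475 there, against 10.00 to 10.91 in the other 8 lines. NDUFV1, which binds the flavin that takes electrons from NADH, had 13.25 in SNU-739 and 13.10 in SNU-475, against 11.26 to 12.35 in the others. UQCRC1, a core subunit of complex III, was lowest in SNU-739, at 10.24, and highest in SNU-886, at 12.35. UQCRB ran from 8.75 in JHH-4 to 10.83 in SNU-475. ATP5G3, now ATP5MC3, ran from 7.08 in JHH-4 to 9.36 in JHH-6.

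In Hep3B a set of subunits was not detected while others stayed bright. Of the 64 subunits detected in all other HCC lines, 18 were not detected in Hep3B, 28.1%, and of all 7325 genes so detected 32.3% were not. For the subunits whose raw intensity was over 1000 in all other lines, 17 of 54, 31.5%, lay under 0.1 of the median of those lines, where 20.2% of 1800 such genes did. The median ratio to the other lines was 0.262 for these subunits and 0.322 for these genes. For each of the other 10 HCC lines 0 of the 46 subunits detected in all remaining lines, Hep3B included, were missed, where 0.562% to 2.75% of such genes were. The share not detected in Hep3B was thus below that of all genes, and the share under 0.1 above it, with no test of either.

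The undetected subunits came from all 5 complexes. In complex I they were 8 of 28, namely NDUFA3, NDUFA10, NDUFB10, NDUFC1, NDUFS1, NDUFS3, NDUFS5 and NDUFV3. In complex III they were UQCR, UQCRB and UQCRQ of 8 subunits, in complex IV COX7A2 and COX8A of 11, in complex V ATP5D, ATP5G3, ATP5I and ATP5L of 13, and in complex II SDHD of 4. Some of these were dim in every HCC line, such as NDUFV3 at raw intensities of 149.3 to 295 and NDUFS1 at 151.4 to 435.6. In Hep3B NDUFV3 had 170.4 and NDUFS1 192.4, which were 0.85 and 0.75 of the median of the other lines. COX8A, the widely expressed form of a small subunit of cytochrome c oxidase, had a raw intensity of 152.8 in Hep3B, against 13600.9 to 28639.4 in the other HCC lines. UQCRQ, a small subunit near the quinone site of complex III, had 173.8 against 14383.4 to 29745.9, and NDUFS5 had 147.4 against 7247 to 19857. All 3 were at background in Hep3B and bright in every other line. ATP5L, the g subunit of the ATP synthase, was not detected in Hep3B although its raw intensity there was 2218.

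Other subunits of the same complexes stayed bright in Hep3B, though NDUFB8 and COX4I1 had their lowest raw intensity of all HCC lines there. NDUFB8, an accessory subunit often used as a marker of assembled complex I, had a raw intensity of 6883 in Hep3B. In the other lines it had 11014.7 to 17018.4, with a median of 13646.6. COX4I1 had 14204.6 in Hep3B, against 16215.3 to 41372 in the other lines, with a median of 23017.4. NDUFS7, a core iron-sulfur subunit of complex I, had 4194 in Hep3B, above all other HCC lines, whose highest was 4052 in SNU-423. It was the 1 subunit of 54 whose raw intensity in Hep3B reached the median of the others. Of the 1800 genes over 1000 in all other lines 156 did. After normalization NDUFB8 stood at 13.82 in Hep3B, below only SNU-423 at 14.08 and PLC/PRF/5 at 14.19, whereas NDUFA10, an accessory subunit of the membrane arm, stood at 5.26 in Hep3B, against 7.73 to 9.53. The low overall signal of this array moves with these values, and its part in them was not tested.

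**Figure D3:**
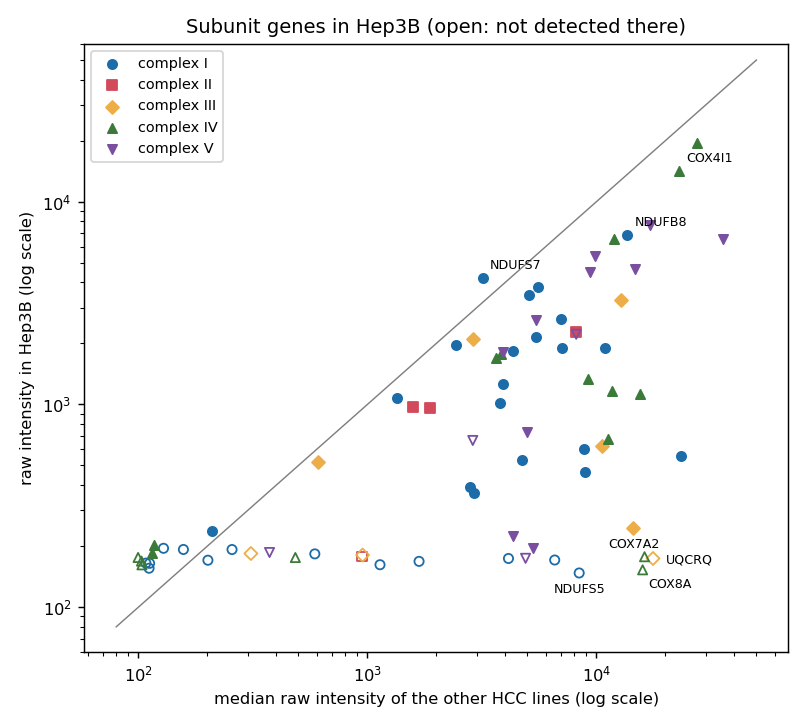
Raw intensity of each subunit in Hep3B (vertical axis, log scale) against its median over the other 10 HCC lines (horizontal axis, log scale), by complex; the line marks equal values and open marks were not detected in Hep3B. COX8A, COX7A2, UQCRQ and NDUFS5 lie at background in Hep3B, NDUFS7 lies above the line, and NDUFB8 and COX4I1 lie nearer to it.

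Among the lung and pancreas lines NCI-H596 was the low line. The distance from the highest to the lowest line was 0.98 for complex I, 0.71 for II, 0.78 for III, 0.63 for IV and 1.14 for V. NCI-H596, from the lung group, was lowest in complexes I (-0.64), III (-0.45), IV (-0.32) and V (-0.82). In it 56 of 70 subunits lay below their median, 80%, against 55.5% of the 11250 genes detected as widely. It had 18 of 70 subunits at least 1 below their median, 25.7%, against 9.56% of those genes. Its array had 43.6% of genes detected and the highest 95th percentile over background of this set, 43.55. The part of the array in these low values was not tested. BxPC-3 also had 56 of 70 subunits below their median, against 53.0% of genes, with complex I at -0.38 and 30 of its 32 subunits below. AsPC-1 had complex V at -0.55.

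Other lines lay on the high side. Malme-3M had 51 of 70 subunits above their median, 72.9%, against 50.9% of genes, with complex I at 0.34. Calu-3 had 48 of 70 above, against 55.5% of genes, with complex III at 0.33. In Capan-2 all 14 of the complex V subunits averaged lay above their median, with a mean deviation of 0.32, where 50.6% of genes lay above. Complex II did not follow the other complexes, being lowest in Calu-1 at -0.59 and in NCI-H1299 at -0.38. The mean correlation between pairs of subunits over the 10 lines was 0.36 within complex V, 0.31 within complex I and 0.04 within complex II, and 0.27 over all 69 subunits detected in every line. Over all 9748 genes detected in every line it was 0.01. In the HCC lines it was lower, 0.09 over the 46 subunits detected in all 11 lines and 0.14 over 64 subunits without Hep3B, with 0.05 within complex I and 0.33 within complex IV without Hep3B. In each set all points share the same arrays and normalization.

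Among subunits detected in every one of these 10 lines, the largest SDs were those of ATP5G1, NDUFB1, ATP5G3, ATP5I, NDUFA7, NDUFA9, ATP5J2 and NDUFA13. For all of these but ATP5I and NDUFB1 NCI-H596 was the lowest line. ATP5G1, now ATP5MC1, encodes the same c subunit as ATP5G2 and ATP5G3 and had 11.91 in Calu-3, 10.02 in NCI-H596, 12.28 in NCI-H1299, 13.07 in Malme-3M and 11.55 in Calu-1. Among pancreas lines it had 12.14 in MIA-PaCa-2, 10.26 in AsPC-1, 11.57 in BxPC-3, 12.44 in Capan-2 and 12.61 in Capan-1. NCI-H596 and AsPC-1 were thus low and the groups overlapped. ATP5G3 had 6.61 in NCI-H596 and 7.65 to 9.25 in the other lung lines, against 7.80 to 9.38 in the pancreas lines. ATP5I, the e subunit of the ATP synthase membrane part, had 11.38 in NCI-H596 and 13.02 to 13.59 in the other lung lines, against 11.25 in Capan-1 and 12.21 to 13.36 in the other pancreas lines. NDUFB1 had 9.96 in NCI-H1299, above all other lines, which ran from 6.69 to 8.05.

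Spread between lines was slightly smaller for the subunits than for other genes. The median SD of the 69 subunits detected in every lung and pancreas line was 0.46, against 0.54 over all 9748 such genes and 0.49 over the 1050 genes nearest to them in level. In the HCC lines without Hep3B it was 0.43 over 64 subunits, against 0.55 over 7325 genes and 0.49 over 1013 genes of like level. These are descriptions, and the difference from other genes was not tested.

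The design allows 1 test, lung against pancreas lines, which asks whether subunit expression differed with the tissue of origin. No single subunit passed. Of the 81 subunits 72 were detected in at least 3 of the 10 lines and tested, and 0 passed a Benjamini-Hochberg adjusted p of 0.05 (limma, adjusted p = 0.9999 for each), where 0.00584% of all 17119 genes did, which was BTBD6 alone, named because it is the single call. At an unadjusted limma p under 0.05 there were 4 subunits, 5.56%, against 3.65% of all genes. With single lines left out this count ran from 0 (without AsPC-1) to 5 (without NCI-H596 or Capan-1). It was 1 without Malme-3M, Calu-1 or BxPC-3. Over all genes, at least 16713 tested, the count then ran from 508 (without NCI-H1299) to 833 (without NCI-H596). In 0 subunits did all lung lines lie on 1 side of all pancreas lines, against 0.613% of all genes (0.286% with lung above, 0.327% with lung below). The number of arrays, 5 a group, limits the precision, and a p that misses the threshold does not show that the groups are alike.

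The lung minus pancreas difference was positive in 38 subunits and negative in 34, with a median of 0.02 and a range of -0.69 to 0.86, beside a median of 0.00 over all genes. By complex the median was 0.09 for I (20 positive, 13 negative), -0.25 for II (1 and 3), 0.02 for III (4 and 4), -0.04 for IV (5 and 7) and 0.06 for V (8 and 7). Single lines set the overall median: it was 0.13 without NCI-H596, 0.08 without Capan-2 and 0.05 without Capan-1, and -0.03 without Calu-3, -0.03 without Malme-3M, -0.04 without AsPC-1 and -0.03 without BxPC-3.

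**Figure D4:**
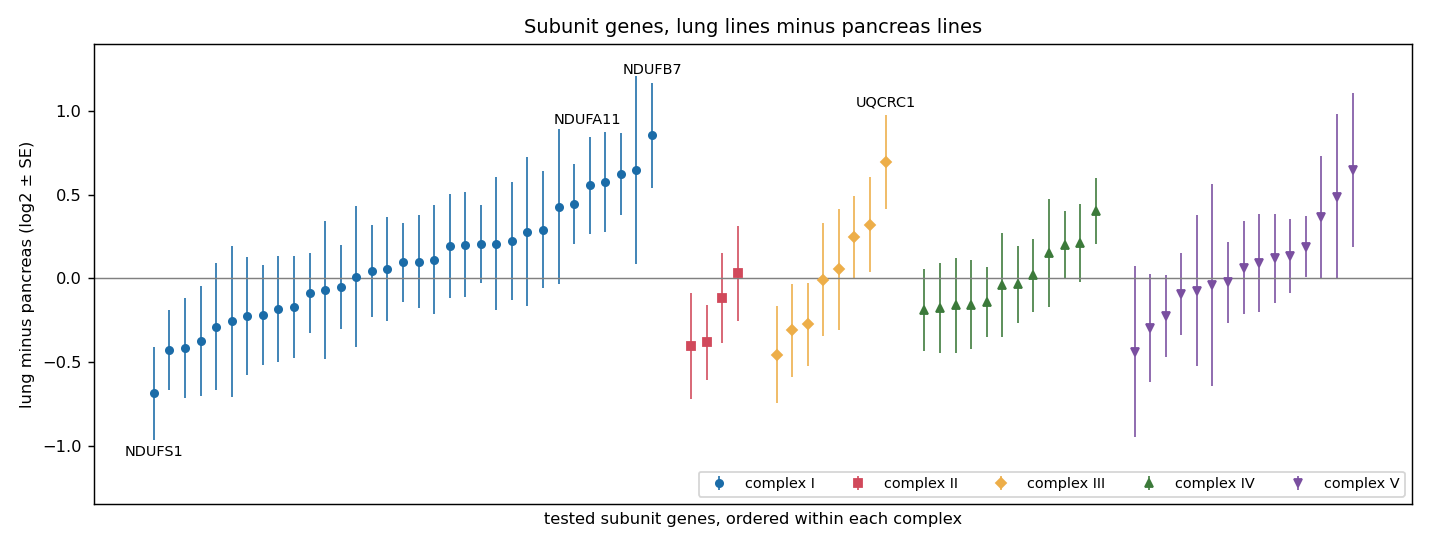
Lung minus pancreas difference of each tested subunit (log2, vertical axis, with its standard error), ordered within each complex along the horizontal axis; the named subunits had an unadjusted limma p under 0.05. The differences run from -0.69 to 0.86, and 0 passed after adjustment.

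The 4 subunits with an unadjusted p under 0.05 were 3 of complex I and 1 of complex III. NDUFB7, an accessory subunit on the intermembrane side of complex I, had 13.19 in Calu-3, 12.28 in NCI-H596, 13.27 in NCI-H1299, 13.81 in Malme-3M and 13.12 in Calu-1, against 12.70 in MIA-PaCa-2, 11.77 in AsPC-1, 11.84 in BxPC-3, 12.56 in Capan-2 and 12.54 in Capan-1. All lung lines but NCI-H596 lay above all pancreas lines, with a difference of 0.86, a standard error of 0.31 and an unadjusted limma p of 0.0214.

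NDUFA11, an accessory subunit of the membrane arm, had 12.90 in Calu-3, 12.74 in NCI-H596, 13.39 in NCI-H1299, 13.85 in Malme-3M and 13.60 in Calu-1, against 12.94 in MIA-PaCa-2, 12.41 in AsPC-1, 12.63 in BxPC-3, 12.66 in Capan-2 and 12.71 in Capan-1. MIA-PaCa-2 lay above Calu-3 and NCI-H596, and the difference was 0.62 with a standard error of 0.25 (limma, unadjusted p = 0.0300). UQCRC1 had 12.95 in Calu-3, 12.66 in NCI-H596, 12.44 in NCI-H1299, 12.96 in Malme-3M and 12.79 in Calu-1, against 12.10 in MIA-PaCa-2, 11.22 in AsPC-1, 12.02 in BxPC-3, 12.20 in Capan-2 and 12.79 in Capan-1. Capan-1 lay among the lung lines and the other pancreas lines below them, with a difference of 0.69 and a standard error of 0.28 (limma, unadjusted p = 0.0319).

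NDUFS1, the large iron-sulfur subunit near the entry of electrons into complex I, ran the other way. It had 7.36 in Calu-3, 6.86 in NCI-H596, 7.35 in NCI-H1299, 7.97 in Malme-3M and 6.95 in Calu-1, against 8.12 in MIA-PaCa-2, 8.40 in AsPC-1, 7.34 in BxPC-3, 8.19 in Capan-2 and 7.88 in Capan-1. BxPC-3 and Capan-1 lay within the lung range, and Calu-3, NCI-H1299 and Malme-3M within the pancreas range, with a difference of -0.69 and a standard error of 0.28 (limma, unadjusted p = 0.0331).

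**Figure D5:**
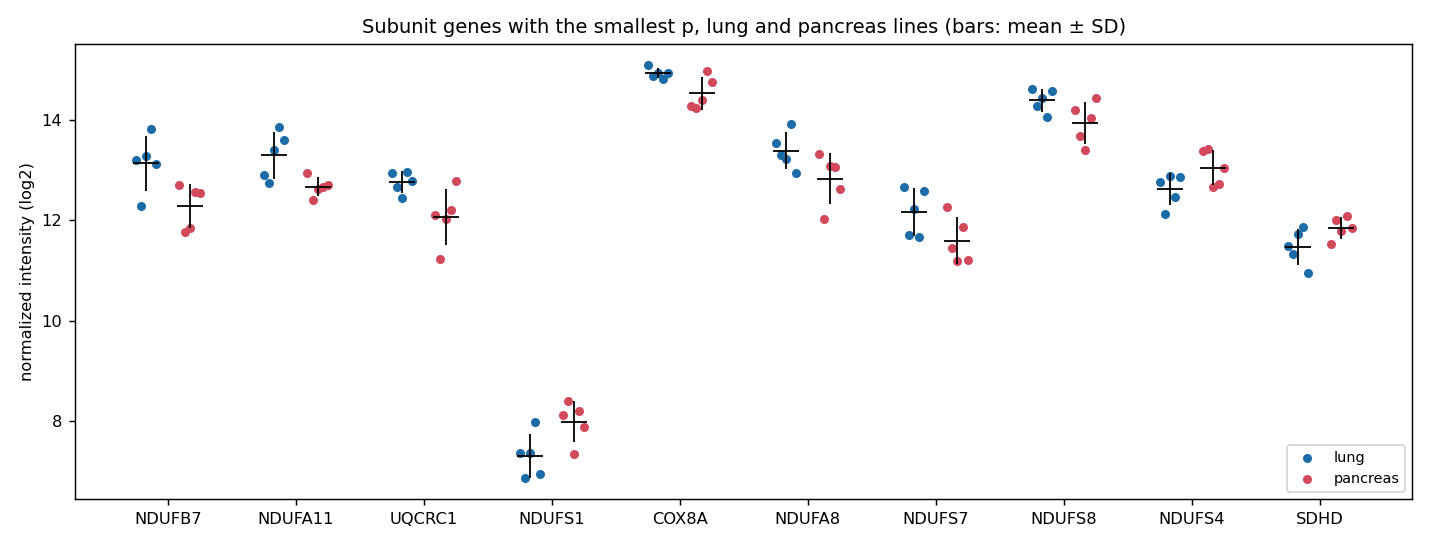
Normalized intensity (log2, vertical axis) of the 10 subunits with the smallest p, each lung line and each pancreas line as a point, with the mean ± SD of the 5 lines of a group. The points of both groups overlap in every subunit shown.

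The next 6 subunits by p had smaller differences. COX8A averaged 14.93 ± 0.11 in lung and 14.53 ± 0.32 in pancreas lines (SD, n = 5 each), a difference of 0.40. NDUFA8, a cysteine-rich subunit of the intermembrane side, averaged 13.38 ± 0.37 in lung and 12.83 ± 0.51 in pancreas, a difference of 0.56. For 2 core subunits that carry iron-sulfur clusters toward the quinone, NDUFS7 averaged 12.17 ± 0.47 in lung and 11.59 ± 0.47 in pancreas and NDUFS8 14.39 ± 0.23 in lung and 13.95 ± 0.42 in pancreas. NDUFS4, an accessory subunit beside the NADH-oxidising module, averaged 12.62 ± 0.33 in lung and 13.05 ± 0.35 in pancreas, and SDHD 11.47 ± 0.36 in lung and 11.85 ± 0.22 in pancreas. None of these passed, and each had overlapping groups.

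NDUFB8 and NDUFA10 did not differ beyond the spread between lines. NDUFB8 had 14.38 in Calu-3, 12.17 in NCI-H596, 13.64 in NCI-H1299, 13.49 in Malme-3M and 13.52 in Calu-1, against 13.63 in MIA-PaCa-2, 13.70 in AsPC-1, 13.45 in BxPC-3, 14.37 in Capan-2 and 13.49 in Capan-1. NCI-H596 was low and Calu-3 and Capan-2 were high. The difference was -0.29 and its standard error 0.38 (limma, adjusted p = 0.9999), and without NCI-H596 it was 0.03. NDUFA10 averaged 11.05 ± 0.31 in lung and 11.27 ± 0.58 in pancreas lines (SD, n = 5 each), a difference of -0.22 with a standard error of 0.30.

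Among other genes of the pathway 0 passed the threshold in either direction in each of 5 lists (limma). The 6 other electron carriers and subunits outside the symbol rule were all positive, with a median difference of 0.36. Among them NDUFA4L2, a paralogue of NDUFA4 known to respond to hypoxia, had 1.34 with a standard error of 0.43, and ATPIF1, the inhibitor of ATP hydrolysis by the synthase, 0.45 with a standard error of 0.17. Their unadjusted limma p were 0.0101 and 0.0254. Of 33 assembly factors tested 15 were positive and 18 negative, with a median of -0.01. ECSIT, which takes part in complex I assembly, had 1.43 with a standard error of 0.42 (limma, unadjusted p = 0.00703). The 13 genes of the tricarboxylic acid cycle, which supplies the chain with NADH and succinate, had a median of -0.03, with 5 positive. Of 71 mitochondrial ribosomal proteins 38 were positive, with a median of 0.07. Of 12 biogenesis regulators 7 were positive, with a median of 0.11, and the coactivator PPARGC1A had 1.15 with a standard error of 0.72. An unadjusted limma p under 0.05 was found for 2 of the 6 carriers, 1 assembly factor and 2 mitochondrial ribosomal proteins. It was found for 0 genes of the tricarboxylic acid cycle and 0 biogenesis regulators, and for 3.65% of all genes.

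Short motifs were searched in the start regions of the subunit genes. Regions of 300 bases, 250 before to 50 after the start, were found for 66 of the 81 subunits in RefSeq (GRCh38.p14) among 27305 genes. The core of the site for NRF1, a regulator of nuclear genes for mitochondria, searched as GCATGCGC on both strands, was present in 13 of them, 19.7%, and in 3.27% of all regions. The core for ETS factors such as GABP, searched as CCGGAAGT on both strands, was present in 9, 13.6%, against 4.44% of all regions, and AAGATGGC, a core for YY1, in 11, 16.7%, against 3.03%. At least 1 of these was present in 27 regions of subunits, 40.9%, against 9.94% of all. Overlapping matches counted once for a region. The median number of CG pairs was 22.5 in the regions of subunits and 14 in all regions. COX7B2 had 8, and the lowest of all subunits was COX7A2 with 0.

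SDHD and COX5B hold both the NRF1 and the ETS core and are shown for that reason. The stretch of 250 bases before the start of each is given with matched letters in capitals, 5' to 3' along the gene. That of SDHD lies at chr11:112086623-112086872 and that of COX5B at chr2:97645812-97646061, both on the plus strand. In SDHD the NRF1 core matches on both strands with overlap.
SDHD: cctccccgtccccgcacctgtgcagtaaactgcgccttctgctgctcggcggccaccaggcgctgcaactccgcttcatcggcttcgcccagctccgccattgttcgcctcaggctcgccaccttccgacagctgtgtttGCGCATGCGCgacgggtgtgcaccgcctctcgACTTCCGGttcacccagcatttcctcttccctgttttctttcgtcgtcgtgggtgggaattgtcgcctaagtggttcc
COX5B: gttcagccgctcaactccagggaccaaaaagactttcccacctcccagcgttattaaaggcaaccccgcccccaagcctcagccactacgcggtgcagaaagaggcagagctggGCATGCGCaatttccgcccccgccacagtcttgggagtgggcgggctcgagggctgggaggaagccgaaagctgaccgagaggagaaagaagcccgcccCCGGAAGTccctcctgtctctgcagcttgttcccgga
A match describes letters in these regions, and binding was not measured here.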

How the data were processed

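Gene-level bead intensities and a detection p-value for each gene and line were deposited by the authors, made with BeadStudio per the submitters' processing notes, in a version that the sources used here do not give. Per the file headers these are unnormalized values, in 3 raw tables, beside 2 tables of processed values used as an alternative, and 0 columns of values were left unmapped. Here the mean and SD of the background were estimated for each array from the detection p-values, and the intensities were corrected with normexp (offset 16), quantile normalized and put on the log2 scale with limma 3.58.1 in R 4.3.3. Normalization was run apart for the 11 HCC lines and for the 10 others. Genes detected (p under 0.05) in at least 3 of the 10 lung and pancreas lines were tested with limma's moderated test (lmFit, eBayes) and Benjamini-Hochberg adjustment over all of them. Symbols, roles, lists and tests were chosen with earlier results of these data known. Named subunits were the 10 with the smallest p, the 8 with the largest SD in each set, the isoforms, NDUFB8 and NDUFA10. A result that this rule would name is not reported here. The alternatives were no background correction, median scaling, the processed tables, a stricter filter or none, and leaving out single lines. The test was checked on simulated data.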

Additional observations from a re-analysis of the deposited data

Results flagged for a closer look

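In the groups of 5 lines, 52 were examined for a line far from the rest (26 genes or summaries, in lung and in pancreas lines), and 4 had a gap to the nearest line over 0.71 of the whole range. Chance gives about 1 in 20 groups, but some of these genes, ATP5I and ATP5J2 among them, were named for a large SD over the same lines, so the count cannot be read against that share. ATP5I was lowest in NCI-H596 at 11.38, against 13.02 to 13.59 in the other lung lines, and ATP5J2, the f subunit of the ATP synthase, was lowest there at 11.84, against 13.39 to 13.87. COX7B2 was highest in NCI-H1299 at 11.98, against 4.82 to 5.01 in the other lung lines. NDUFB8 was highest in Capan-2 at 14.37, against 13.45 to 13.70 in the other pancreas lines.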

How the results depend on the processing

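No subunit passed the adjusted threshold for lung against pancreas in any setting run (limma), the smallest adjusted p being 0.8946, without NCI-H596. The count over all genes was 1, became 2 with a detection p under 0.01 in at least 5 lines, and ranged from 1 to 4 when single lines were left out (3 without Calu-3, 4 without BxPC-3, 2 without AsPC-1, without Capan-2 and without NCI-H1299). The distance between the highest and lowest HCC line, 2.03, 1.89, 3.22, 2.67 and 2.24 for complexes I to V, was 0.3676, 1.2414, 0.7468, 0.7014 and 0.6015 without Hep3B and 3.6371, 3.2335, 4.7664, 4.0813 and 3.5195 with median scaling, and the cause of the change with median scaling was not tested. Of 300 alternative values of 20 named subunits, 13 had the opposite sign, in 4 subunits whose main difference was at most 0.29 in size. ATP5G1 (-0.04) was 0.0282 with median scaling and ran from -0.4234 (without AsPC-1) to 0.4015 (without NCI-H596) with single lines left out. Likewise ATP5J2 (-0.07) ran from -0.3642 to 0.2869, NDUFB8 (-0.29) from -0.5216 to 0.0286, and NDUFA13 (0.01) from -0.1879, without Malme-3M, to 0.2316. COX6B2 and COX8C were detected in 0 HCC lines at a detection p under 0.01, ATP5G2 in 2, and 9 subunits in no HCC line. No paired analysis was run, as the lung and pancreas lines are separate lines and the labels pair none of them. With 1 array per line, line and array cannot be told apart, and genes near background have a bound rather than a level.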
